A study of Rattus norvegicus with 12 samples.

Results

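The transmitter receptor genes of the retina described here encode the receptors for GABA, glycine and acetylcholine, and they comprised 45 of the 30560 genes in the deposited table. They were chosen by name: protein-coding genes for GABA-A and rho subunits (Gabra, Gabrb, Gabrg, Gabrd, Gabrp, Gabrq, Gabrr), the GABA-B subunits Gabbr1 and Gabbr2, glycine receptor subunits (Glra, Glrb), nicotinic subunits (Chrn) and muscarinic receptors (Chrm). The choice used no measured value, though earlier results of these data were known when it was made. RNA from the retinas of 12 rats was sequenced, with 1 total RNA library per rat. In 6 rats 2 µL of PBS had been injected into the vitreous, and in the other 6 rats 2 µL of 20 mM NMDA, an agonist of ionotropic glutamate receptors that injures inner retinal neurons by overstimulation and is used as a glaucoma model. Strain, sex, age and the time between injection and collection are not given in the sources used here, and nothing in the labels says whether an animal gave 1 or both retinas. Libraries are named by group and the number in their label, PBS 1 to PBS 6 and NMDA 1 to NMDA 6.

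GABA and glycine are the fast inhibitory transmitters of the retina. Both open chloride channels assembled from several subunits, and amacrine cells release them onto bipolar, amacrine and ganglion cells. GABA-A receptors usually combine alpha, beta and gamma subunits, the rho subunits form the slow GABA-C receptors of bipolar cell terminals, and GABA-B receptors signal through G proteins. Acetylcholine comes from starburst amacrine cells and acts on nicotinic cation channels and on muscarinic receptors coupled to G proteins.

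Total counts ran from 16415611 to 34022023 per library. Of the 45 receptor genes, 38 passed the filter on low counts and were tested among 16260 genes (edgeR quasi-likelihood, two-sided, Benjamini-Hochberg adjustment over all of them, threshold 0.05). For a gene across libraries, levels are CPM, the counts in each 1000000 of the TMM-scaled library total. For genes set against each other they are the deposited FPKM, which is also per gene length. A log2 fold change is NMDA minus PBS, followed by the SE of the fit. In bulk retina, fewer cells of a type and less RNA per cell cannot be told apart. Of all tested genes, the share that rose among those that changed was 53.8%, and 64.6% with scaling by library size alone. The summed level of 10 rod markers, genes that define the retina's most abundant cell, was 50019 to 53262 CPM with PBS and 36282 to 51747 with NMDA, and 6 of these markers fell. PBS 5 and NMDA 3 stood apart in the summed level of 7 pigment epithelium markers, at 200.1 and 261 CPM, where the other PBS libraries held 69.2 to 107 and the other NMDA libraries 16.1 to 46.8. The melanosome gene Pmel was the largest part of these 2 sums, at 123 and 184 CPM. Rpe65 was lowest of the PBS libraries in PBS 5, at 7.06, and highest of the NMDA libraries in NMDA 3, at 5.92. Of these 7 markers, 3 fell and none rose. Without PBS 5 and NMDA 3, 26 receptor genes fell and 2 rose.

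After NMDA, 25 of the 38 tested receptor genes fell, against a background of 17.5% of all tested genes, and 3 rose, against a background of 20.4%. In either direction 28 passed, where 37.9% of all genes did. Their median log2 fold change was -0.44, beside 0.01 over all genes. In 17 of the 38 every NMDA library lay below every PBS library (8.66% of all tested genes), and in none did every NMDA library lie above every PBS library (9.43% of all tested genes). Only Gabra4 changed by 2-fold or more. By class, 8 of 9 tested neuronal nicotinic genes, 4 of 5 glycine receptor genes, both GABA-B genes and 8 of 13 tested GABA-A genes fell, whereas none of the 3 rho genes passed. Without NMDA 1 and NMDA 3, 25 fell and 3 rose, with a median of -0.59. These libraries held the highest NMDA value for 20 of the 25 genes that fell, and were chosen after the values were seen. Leaving out the highest values moves the median down by construction, so the lower median is not a separate result.

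**Figure D1:**
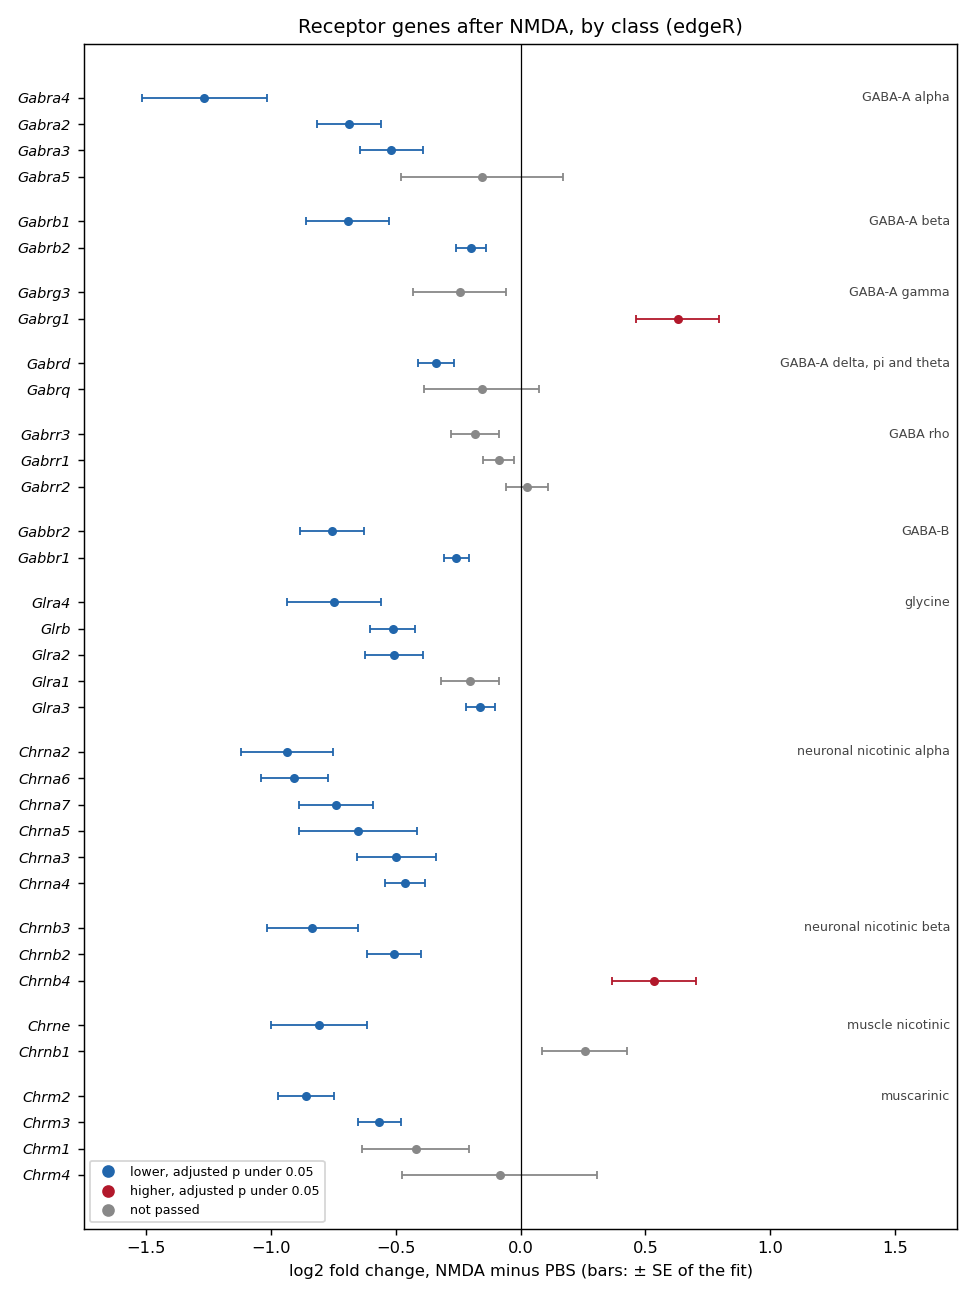
Log2 fold change (NMDA minus PBS, edgeR) of 35 of the 38 tested receptor genes, grouped by class, with bars of ± SE. Blue points passed as lower, red as higher and grey did not pass. The 6 tested neuronal nicotinic alpha genes lie between -0.94 and -0.46, and the 3 rho genes between -0.18 and 0.03.

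Per gene length, the tested receptor genes ran from 0.259 FPKM (Gabrq) upwards with PBS. The highest was Gabrr2 at 46.5 ± 5.23 FPKM (SD, n = 6), followed by Chrna6 at 43.4 ± 3.35, Gabrr1 at 39.6 ± 0.649 and Gabbr1 at 38.3 ± 1.78. The ranges of these 4 overlapped each other. With NMDA the order changed. Gabrr2 was at 49 ± 5.07 FPKM and Gabrr1 at 38.6 ± 3.85, and Chrna6 went from rank 2 to rank 6 at 23.9 ± 5.34. Chrnb4 moved up from rank 18 to rank 11.

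**Figure D2:**
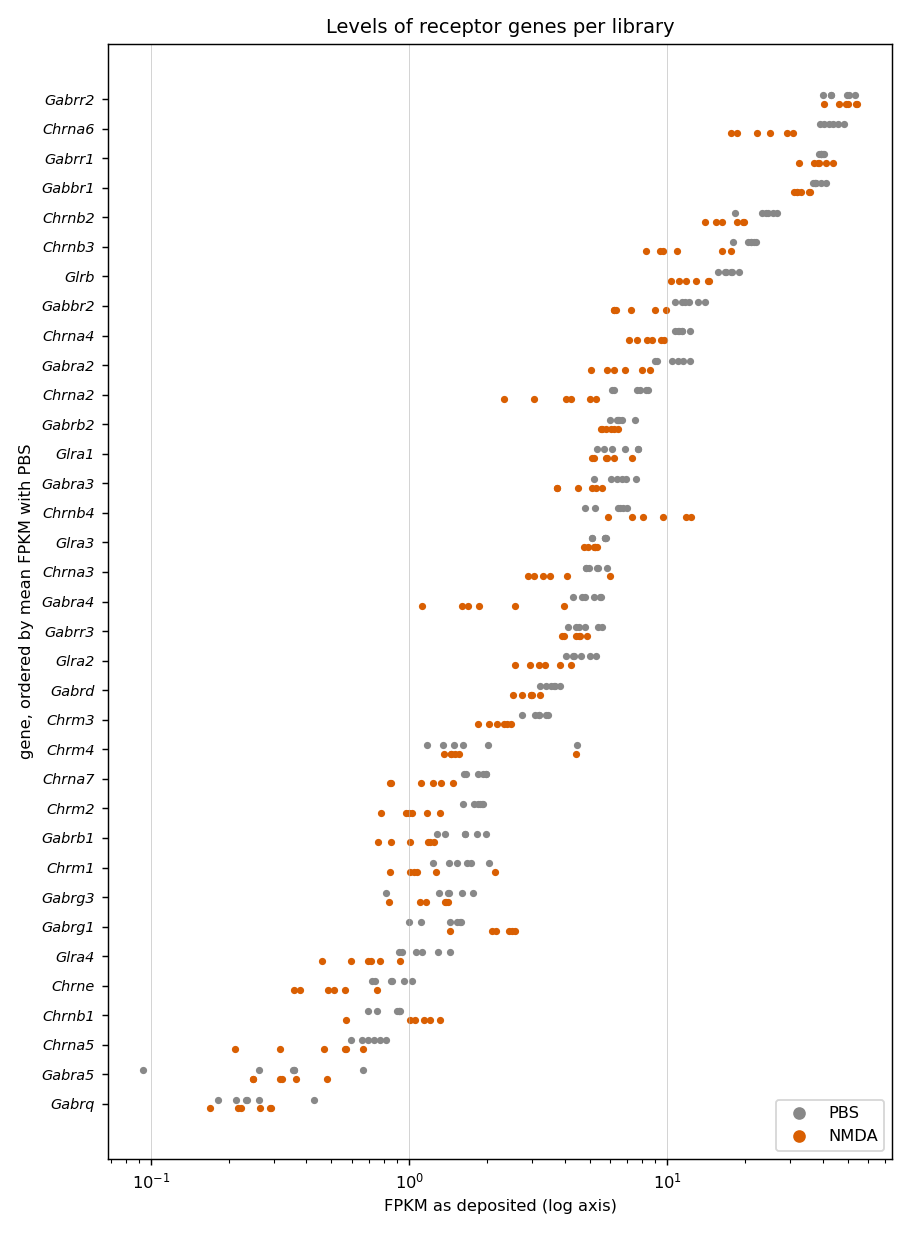
Deposited FPKM (log axis) of 35 of the 38 tested receptor genes, ordered by the mean with PBS, with 1 point per library (grey PBS, orange NMDA). Gabrr1 and Gabrr2 overlap between the groups, whereas Chrna6 ran from 39.2 to 48.3 with PBS and from 17.7 to 30.8 with NMDA.

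All 6 neuronal nicotinic alpha genes tested fell, as did 2 of the 3 beta genes. Chrna6, which encodes the alpha6 subunit of receptors on ganglion cells and dopaminergic neurons (ENSRNOG00000012283, chromosome 16, 64697741 to 64704441, on a build not given in the sources used here), held 69.5 to 85.8 CPM with PBS (median 77.8) and 30.1 to 54.4 with NMDA (median 40.6). Every NMDA library lay below every PBS library, and NMDA 4 and NMDA 5 were the lowest (log2 fold change -0.91 ± 0.13, edgeR adjusted p = 0.000323). Its neighbour Chrnb3, the accessory beta3 subunit that assembles with alpha6, held 47.7 to 58.9 CPM with PBS (median 56.1) and 21.2 to 45.4 with NMDA (median 26.1). NMDA 1 and NMDA 3, at 42.9 and 45.4, came close to the PBS range without entering it, and the other 4 NMDA libraries were at or below 27.8 (log2 fold change -0.83 ± 0.18, edgeR adjusted p = 0.00351).

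Chrna2, an alpha subunit of heteromeric receptors, held 12.1 to 16.6 CPM with PBS (median 15.2) and 4.35 to 10.1 with NMDA (median 7.85), with NMDA 5 the lowest and no overlap (log2 fold change -0.94 ± 0.19, edgeR adjusted p = 0.00172). Chrna4 and Chrnb2 encode the partners of the most common neuronal receptor of the brain. Chrna4 held 54 to 63 CPM with PBS (median 57.6) and 34.6 to 49.3 with NMDA (median 42.1), again without overlap (log2 fold change -0.46 ± 0.08, edgeR adjusted p = 0.000709). For Chrnb2 the range was 40.9 to 59.98 CPM with PBS (median 54.2) and 29.9 to 44 with NMDA (median 37.4), and the groups overlapped because PBS 3 lay below NMDA 1 and NMDA 3 (log2 fold change -0.51 ± 0.11, edgeR adjusted p = 0.00269). Chrna7, whose product forms receptors of a single subunit type, held 4.72 to 5.84 CPM with PBS (median 5.54) and 2.34 to 4.18 with NMDA (median 3.34) and did not overlap (log2 fold change -0.74 ± 0.15, edgeR adjusted p = 0.00186).

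The chromosome 8 cluster of Chrna5, Chrna3 and Chrnb4 encodes the subunits of the ganglionic type of nicotinic receptor. Chrna3, its principal alpha subunit, held 10.4 to 12.6 CPM with PBS (median 11.2) and 6 to 12.6 with NMDA (median 7.04). NMDA 3 was level with the highest PBS library, and the other NMDA libraries lay below all PBS libraries (log2 fold change -0.50 ± 0.16, edgeR adjusted p = 0.0251). That call ended without PBS 3, NMDA 4 or NMDA 5 (adjusted p = 0.0509, 0.0534 and 0.0564; edgeR). Chrna5, an accessory subunit at low level, held 1.81 to 2.51 CPM with PBS (median 2.17) and 0.626 to 1.97 with NMDA (median 1.54) (log2 fold change -0.65 ± 0.24, edgeR adjusted p = 0.0447). NMDA 3 alone lay inside the PBS range. The gene passed in 2 of the 12 fits that left out 1 library, those without NMDA 2 or NMDA 3, with an adjusted p of up to 0.0947 in the others.

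Chrnb4, the beta4 subunit gene at the end of the same cluster, went the other way. It held 8.15 to 11.8 CPM with PBS (median 10.9) and 9.85 to 19.8 with NMDA (median 14.3), with NMDA 6 and NMDA 3 the highest and NMDA 1 within the PBS range (log2 fold change 0.53 ± 0.17, edgeR adjusted p = 0.0239). The call ended without PBS 1, PBS 2 or NMDA 6 (edgeR adjusted p = 0.0535, 0.0542 and 0.0567), with log2 fold changes from 0.44 to 0.62 over all 12 omissions. Among the 3 neuronal beta genes its share of the summed FPKM was 9.25% to 16.1% with PBS and 14% to 32.3% with NMDA, while that of Chrnb3 was 39.5% to 41.8% and 25.2% to 38.8%. Chrna6 supplied most of the alpha FPKM in both groups, 59.2% to 65.9% with PBS and 53.3% to 61.1% with NMDA, and the summed alpha level was 65.2 to 73.2 FPKM with PBS and 31.7 to 51.9 with NMDA. Chrna9 and Chrna10, subunits of the hair cell receptor, had at most 1 and 5 counts in a library and were not tested.

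**Figure D3:**
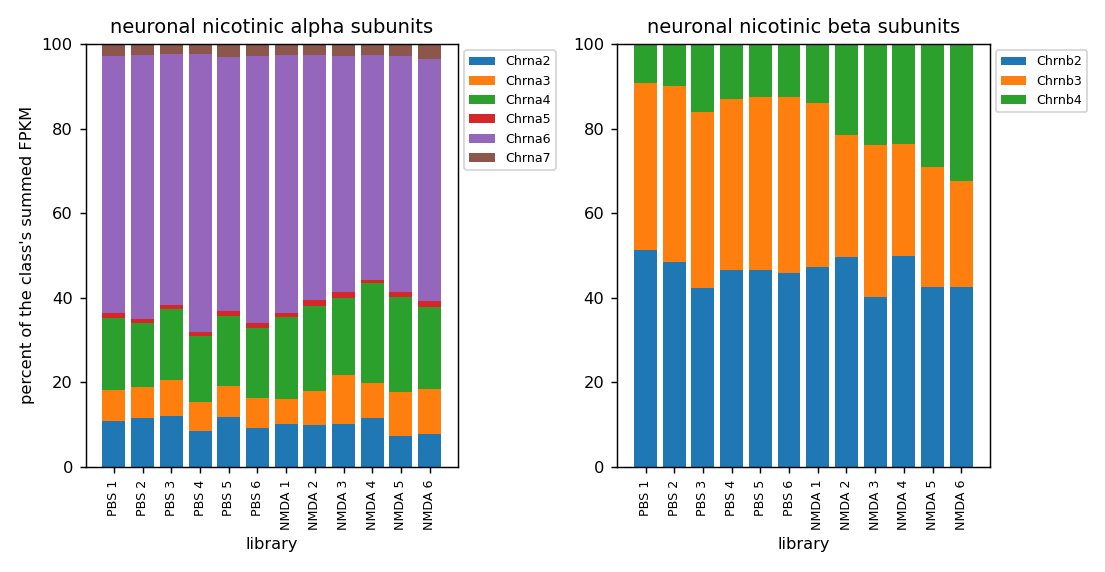
Share of each subunit in the summed FPKM of its class, 1 bar per library, for the neuronal nicotinic alpha and beta genes (Chrna9 and Chrna10, near 0, are not drawn). Chrnb4 makes up 9.25% to 16.1% of the beta sum with PBS and 14% to 32.3% with NMDA.

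Of the muscle-type nicotinic genes, Chrne and Chrnb1 passed the filter. Chrne, the adult epsilon subunit of the neuromuscular junction, held 1.18 to 1.7 CPM with PBS (median 1.4) and 0.567 to 1.18 with NMDA (median 0.793), the groups touching at PBS 3 and NMDA 6 (log2 fold change -0.81 ± 0.19, edgeR adjusted p = 0.00549). Chrnb1, whose span overlaps the far more abundant gene Zbtb4 in the table, held 2.78 to 3.69 CPM with PBS (median 3.62) and 2.26 to 5.14 with NMDA (median 4.22) and did not pass (log2 fold change 0.26 ± 0.17, edgeR adjusted p = 0.26), but it passed as higher without NMDA 1 (0.37, adjusted p = 0.0242). Chrna1 and Chrnd had at most 9 and 3 counts in a library. Skeletal muscle markers summed to 7.92 to 9.8 CPM with PBS and 5.38 to 8.39 with NMDA over 8 genes, and 1 of the 6 tested fell. Their part in the change of Chrne was not tested.

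GABA-A receptor genes mostly fell: of 13 tested, 8 fell and 2 rose, against 17.5% and 20.4% of all tested genes. Among the alpha genes, which largely set where a receptor sits and how it responds to benzodiazepines, Gabra2, Gabra3 and Gabra4 fell and Gabra5 did not pass. Gabra4 changed most of all receptor genes here (ENSRNOG00000002336, chromosome 14, 36590782 to 36665844). It held 8.02 to 10.4 CPM with PBS (median 9.38) and 2.02 to 7.23 with NMDA (median 3.18). NMDA 4 had the lowest value and NMDA 3 the highest, 7.23, with no overlap of the groups (log2 fold change -1.27 ± 0.25, edgeR adjusted p = 0.00169), a fall of 58.4%. Gabra2, an alpha subunit of synaptic receptors, held 21 to 28.5 CPM with PBS (median 25.1) and 11.4 to 19.3 with NMDA (median 14.7), also without overlap (log2 fold change -0.69 ± 0.13, edgeR adjusted p = 0.00121). Gabra3 held 9.47 to 13.8 CPM with PBS (median 11.8) and 6.45 to 10.04 with NMDA (median 8.36), with NMDA 1 inside the PBS range (log2 fold change -0.52 ± 0.13, edgeR adjusted p = 0.00576).

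Of the beta genes, whose products share the GABA binding site with the alpha subunits, Gabrb1 and Gabrb2 fell. Gabrb1 held 2.5 to 3.93 CPM with PBS (median 3.23) and 1.42 to 2.41 with NMDA (median 2.07), without overlap (log2 fold change -0.69 ± 0.17, edgeR adjusted p = 0.00542). Gabrb2 changed less. It held 19.3 to 24.2 CPM with PBS (median 20.9) and 17.3 to 19.8 with NMDA (median 18.6) (log2 fold change -0.20 ± 0.06, edgeR adjusted p = 0.021), and that call ended with scaling by library size (adjusted p = 0.0671) and with limma on log2(FPKM + 1) (adjusted p = 0.075).

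Gabrg1, a gamma subunit more often found in glia and in a few neuron types, rose: it held 1.99 to 3.14 CPM with PBS (median 2.94) and 2.76 to 5.02 with NMDA (median 4.37), and 5 of 6 NMDA libraries lay above all PBS libraries, with NMDA 3 the exception at 2.76 (log2 fold change 0.63 ± 0.17, edgeR adjusted p = 0.00979). It passed in every fit that left out 1 library. Reactive glia markers summed to 426 to 824 CPM with PBS and 1109 to 2312 with NMDA, with all 6 tested higher. The lowest NMDA sum was in NMDA 1, where Gabrg1 was highest, at 5.02 CPM. The next lowest, 1534 CPM, was in NMDA 3, where Gabrg1 was lowest. Müller glia markers went both ways, with 2 of 9 higher and 5 lower. The part of glia in the rise of Gabrg1 was not tested. Gabrg3 did not pass (-0.24 ± 0.19, adjusted p = 0.336).

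Gabrd, the delta subunit of extrasynaptic receptors, held 10.4 to 12.7 CPM with PBS (median 11.7) and 8.01 to 10.2 with NMDA (median 9.3) without overlap (log2 fold change -0.34 ± 0.07, edgeR adjusted p = 0.00289). Gabrq and Gabra5, both below 1 FPKM in every library, did not pass (-0.16 ± 0.23, adjusted p = 0.639, and -0.15 ± 0.32, adjusted p = 0.752). The span of Gabra5 overlaps that of another gene, and its counts are uncertain. Gabrp had at most 8 counts in a library and was not tested. Gabra6, a subunit of cerebellar granule cells, had 0 of 326797149 counts, which allows up to 0.00918 CPM by counting error alone. The receptor genes counted as higher fell from 3 to 1, Gabrg1, without PBS 2 or without NMDA 6.

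None of the 3 rho genes passed, and Gabrr1 and Gabrr2 stayed among the 3 highest receptor genes per length in both groups. Gabrr1 held 164 to 172 CPM with PBS (median 169) and 134 to 185 with NMDA (median 158). The PBS libraries lay close together, and the NMDA libraries spread on both sides of them (log2 fold change -0.09 ± 0.06, edgeR adjusted p = 0.294). Gabrr2 held 71.8 to 94.6 CPM with PBS (median 83.4) and 70.5 to 96.1 with NMDA (median 85) (log2 fold change 0.03 ± 0.09, edgeR adjusted p = 0.843), and Gabrr3 held 7.78 to 10.6 CPM with PBS (median 8.87) and 7.04 to 9.16 with NMDA (median 8.19) (log2 fold change -0.18 ± 0.10, edgeR adjusted p = 0.155). An SE of 0.06 to 0.10 leaves room for small changes: without NMDA 1, which was the highest NMDA library for all 3, Gabrr1 passed as lower at -0.15 (edgeR adjusted p = 0.0448). Bipolar cells, where rho receptors are best known, had 3 of 12 markers lower and 1 higher, with a median of -0.14 and a summed level of 1922 to 2136 CPM with PBS and 1607 to 2122 with NMDA.

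Both GABA-B genes fell, without overlap of the groups. Gabbr2, the subunit that couples to the G protein, held 60.6 to 80.1 CPM with PBS (median 67.5) and 33.3 to 54.2 with NMDA (median 36.9) (log2 fold change -0.76 ± 0.13, edgeR adjusted p = 0.000729). Gabbr1, the subunit that binds GABA, held 259.7 to 296 CPM with PBS (median 268) and 213 to 251 with NMDA (median 221) (log2 fold change -0.26 ± 0.05, edgeR adjusted p = 0.00143). In FPKM, Gabbr1 exceeded Gabbr2 in every library, with means of 38.3 ± 1.78 against 12.2 ± 1.22 with PBS and 33.2 ± 1.95 against 7.47 ± 1.59 with NMDA (SD, n = 6).

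Glycine receptor genes fell in 4 of 5 cases. Glrb, the beta subunit that ties the receptor to the gephyrin scaffold and the most abundant of them, held 48.4 to 58.2 CPM with PBS (median 53.5) and 30.4 to 44.3 with NMDA (median 37.1) without overlap (log2 fold change -0.51 ± 0.09, edgeR adjusted p = 0.000731). Glra2, an alpha subunit found on many amacrine and ganglion cells, held 18.9 to 24.9 CPM with PBS (median 21.2) and 11.6 to 19.2 with NMDA (median 14.8), and NMDA 3 alone lay within the PBS range (log2 fold change -0.51 ± 0.12, edgeR adjusted p = 0.00442). Glra4, at low level, held 1.31 to 2.07 CPM with PBS (median 1.56) and 0.625 to 1.28 with NMDA (median 0.964) without overlap (log2 fold change -0.75 ± 0.19, edgeR adjusted p = 0.00703). Glra3 held 12.8 to 14.6 CPM with PBS (median 14.5) and 11.6 to 13.1 with NMDA (median 12.6) (log2 fold change -0.16 ± 0.06, edgeR adjusted p = 0.0452), the smallest change that passed, and that call ended with scaling by library size (adjusted p = 0.153) and in 9 of 12 fits that left out 1 library, those without PBS 3, PBS 5 or NMDA 3 being the exceptions (adjusted p up to 0.0969).

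Glra1, the alpha1 subunit known from bipolar and ganglion cells and the most abundant glycine alpha gene per length at 6.57 ± 1.01 FPKM with PBS (SD, n = 6), did not pass. It held 15.7 to 22.8 CPM with PBS (median 19) and 14.4 to 21.2 with NMDA (median 16.4) (log2 fold change -0.20 ± 0.12, edgeR adjusted p = 0.192), and without NMDA 1 it passed as lower (-0.29, edgeR adjusted p = 0.0468). The alpha shares overlapped between the groups: Glra1 made up 32.6% to 41.1% with PBS and 33.7% to 43.8% with NMDA, and Glra2 23.2% to 28.4% and 18% to 27.3%.

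Of the muscarinic genes, Chrm2 and Chrm3 fell without overlap. Chrm2, of a receptor that inhibits adenylyl cyclase, held 12.6 to 15.1 CPM with PBS (median 14.4) and 5.76 to 9.9 with NMDA (median 7.52) (log2 fold change -0.86 ± 0.11, edgeR adjusted p = 0.000151). Chrm3, of a receptor that activates phospholipase C, held 14.1 to 17.9 CPM with PBS (median 16.6) and 9.12 to 12.8 with NMDA (median 11.4) (log2 fold change -0.57 ± 0.09, edgeR adjusted p = 0.000365). Chrm1, of the same signalling type as Chrm3, held 2.9 to 4.72 CPM with PBS (median 3.73) and 1.95 to 4.88 with NMDA (median 2.38) and did not pass (log2 fold change -0.42 ± 0.21, edgeR adjusted p = 0.143). NMDA 3 stood above all PBS libraries at 4.88 CPM, and without it Chrm1 passed at -0.66 (edgeR adjusted p = 0.0042). With all libraries kept, Chrm1 also passed as lower under limma voom with quality weights (-0.52, limma adjusted p = 0.0275).

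Chrm4 held 12.4 CPM in PBS 5 and 12 in NMDA 3, and 3.32 to 5.68 in the other 10 libraries (log2 fold change -0.08 ± 0.39, edgeR adjusted p = 0.895). Without PBS 5 its log2 fold change was 0.31 and did not pass. Without both PBS 5 and NMDA 3 it was -0.11 and did not pass (edgeR adjusted p = 0.577). The same 2 libraries stood apart in the melanin pathway genes of the pigment epithelium list. Pmel, of a melanosome protein, held 123 CPM in PBS 5 and 184 in NMDA 3, and 5.75 to 30.6 in the other 10 libraries. Tyr, the tyrosinase gene, held 23.3 and 26.9 CPM, and 0.153 to 3.16 in the others. Rpe65, the retinoid isomerase that defines the pigment epithelium, was lowest of the PBS libraries in PBS 5, at 7.06 CPM, and highest of the NMDA libraries in NMDA 3, at 5.92. The span of Chrm4 also overlaps Mdk, the midkine gene, so that its counts are uncertain. Mdk was highest of each group in the same 2 libraries, at 17.3 and 28.7 CPM, but with less distance from the others, which held up to 16.5 with PBS and 25.2 with NMDA. The part of pigmented cells or of Mdk in the values of Chrm4 was not tested. Chrm5 had at most 10 counts in a library and was not tested.

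**Figure D4:**
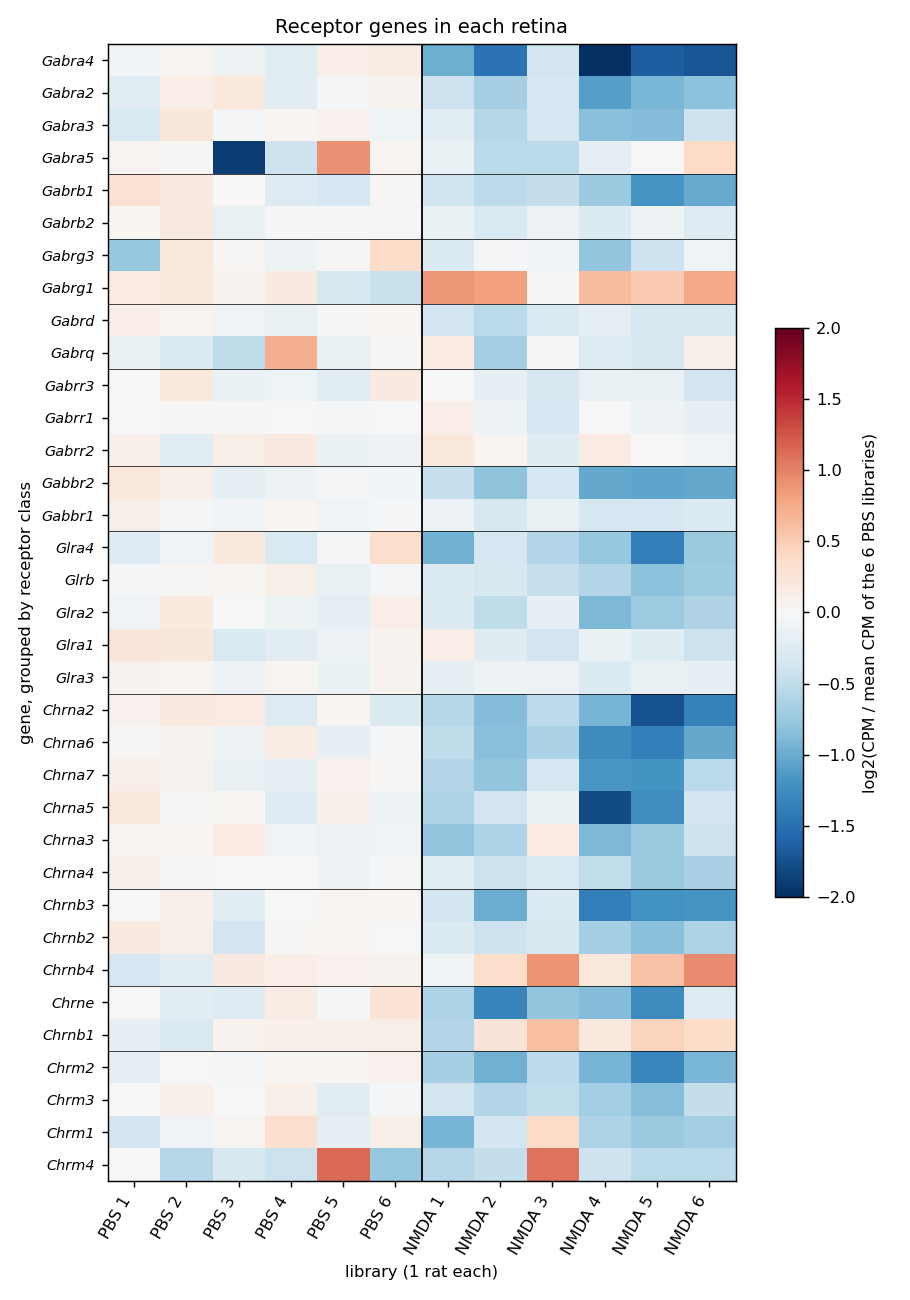
Level of 35 of the 38 tested receptor genes in each library, as log2 of CPM over the mean of the PBS libraries (blue lower, red higher, scale limited to 2 in both directions), with libraries as columns. Most genes are blue in all NMDA columns, palest in NMDA 1 and NMDA 3, and Chrm4 is high in PBS 5 and NMDA 3 alone.

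The receptor genes did not fall equally in the 6 NMDA retinas. Among the 25 genes that fell, the highest NMDA value was in NMDA 1 for 10 and in NMDA 3 for 10, and the lowest was in NMDA 5 for 12, in NMDA 4 for 10 and in NMDA 2 for 3. NMDA 1 and NMDA 3 were also the NMDA libraries with the highest summed level of 12 ganglion cell markers. That sum was 853 to 1006 CPM with PBS, 589.8 in NMDA 3 and 540.1 in NMDA 1, and 226 to 297 in the other 4 NMDA libraries. Of these markers 11 fell, Rbpms being the exception, and their median log2 fold change was -1.34. All 10 amacrine markers fell as well, with a median of -0.51 and a summed level of 2359 to 2497 CPM with PBS. With NMDA that sum was 1901 CPM in NMDA 1, 1959 in NMDA 3 and 1425 to 1637 in the other 4 libraries. Reactive glia markers, which rose, had their lowest NMDA sums in the same 2 libraries. These were 1109 CPM in NMDA 1 and 1534 in NMDA 3, against 1670 to 2312 in the others. The bipolar marker sum was 2122 CPM in NMDA 1 but 1811 in NMDA 3, within the 1607 to 1906 of the others. The part of these cell types in the receptor changes was not tested. The surface marker Thy1 fell by 1.28 on the log2 scale (edgeR adjusted p = 0.000645). Of 10 microglia and macrophage markers 8 rose and 1 fell, of 9 Müller glia markers 2 rose and 5 fell, of 9 cone markers 4 fell, of 6 horizontal cell markers 2 fell, and of 10 lens markers none passed.

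Many receptor genes sit side by side on the chromosomes. With a gap of at most 1 Mb, 22 of the 45 fell into 8 clusters. In the following 2 clusters 1 gene rose while its tested neighbours fell. On chromosome 14, Gabrg1 (0.63) follows Gabrb1 (-0.69), Gabra4 (-1.27) and Gabra2 (-0.69). On chromosome 8, Chrnb4 (0.53) follows Chrna5 (-0.65) and Chrna3 (-0.50). By contrast Chrna6 and Chrnb3, on chromosome 16, fell by like amounts, and Gabrr2 and Gabrr1, on chromosome 5, both stayed short of the threshold. All of these values are log2 fold changes.

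**Figure D5:**
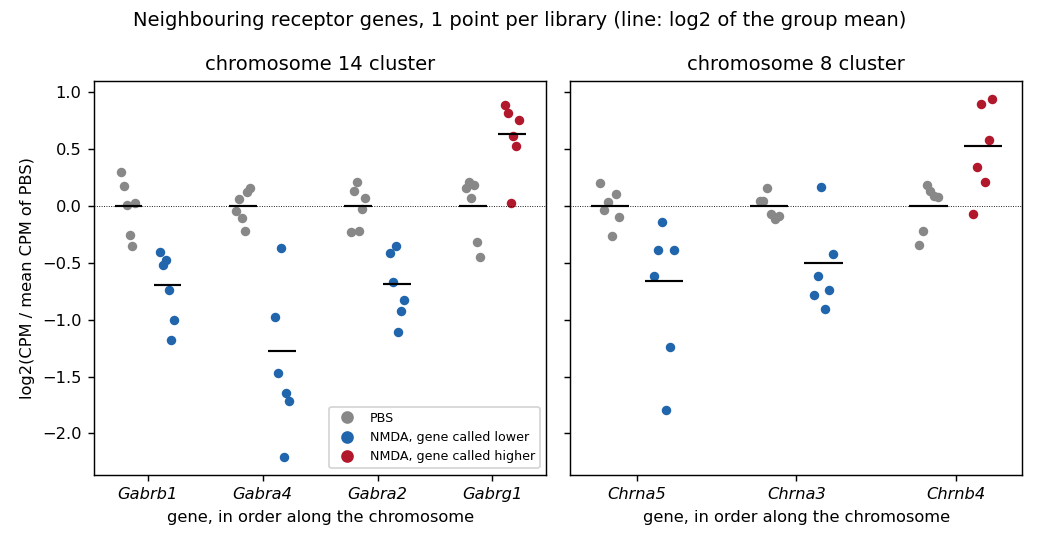
Levels of the tested receptor genes of 2 chromosomal clusters, in their order along the chromosome, as log2 of CPM over the mean of PBS, with 1 point per library (grey PBS, blue or red NMDA by the direction of the call) and a line at the group mean. In each cluster 1 gene has its NMDA mean above that of PBS and the others have it below.

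Promoter sequences from RefSeq (build GRCr8) were found for 35 of the 45 genes. Those of the chromosome 8 cluster and of the available genes of the chromosome 14 cluster are shown because neighbours there moved in opposite directions. Each line gives the 250 bases before the gene's start, 5′ to 3′ on the gene's strand, with matches to the GC box letters GGGCGG, on either strand, in capitals. The positions are Chrna5 chr8:64265629-64265878 (+ strand), Chrna3 chr8:64311252-64311501 (- strand), Chrnb4 chr8:64333110-64333359 (- strand), Gabrb1 chr14:36902894-36903143 (- strand), Gabra4 chr14:36944497-36944746 (+ strand) and Gabrg1 chr14:37750042-37750291 (+ strand).
Chrna5: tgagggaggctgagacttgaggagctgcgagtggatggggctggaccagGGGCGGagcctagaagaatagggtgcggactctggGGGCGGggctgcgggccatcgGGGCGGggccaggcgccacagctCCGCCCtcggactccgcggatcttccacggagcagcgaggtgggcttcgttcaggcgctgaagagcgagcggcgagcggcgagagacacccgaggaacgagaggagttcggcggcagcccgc
Chrna3: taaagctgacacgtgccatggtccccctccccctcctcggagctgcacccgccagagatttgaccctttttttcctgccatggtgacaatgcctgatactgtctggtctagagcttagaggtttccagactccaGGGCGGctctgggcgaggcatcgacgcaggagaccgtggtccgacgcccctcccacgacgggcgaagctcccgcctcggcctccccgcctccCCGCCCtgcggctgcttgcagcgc
Chrnb4: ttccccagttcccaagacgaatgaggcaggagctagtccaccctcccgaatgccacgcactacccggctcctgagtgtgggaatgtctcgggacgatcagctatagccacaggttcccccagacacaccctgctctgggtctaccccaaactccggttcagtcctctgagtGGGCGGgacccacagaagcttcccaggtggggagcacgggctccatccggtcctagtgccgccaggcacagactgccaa
Gabrb1: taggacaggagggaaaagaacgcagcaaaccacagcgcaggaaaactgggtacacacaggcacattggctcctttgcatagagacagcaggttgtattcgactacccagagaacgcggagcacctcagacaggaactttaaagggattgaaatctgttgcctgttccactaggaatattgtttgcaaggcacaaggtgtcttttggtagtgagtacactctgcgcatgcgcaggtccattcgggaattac
Gabra4: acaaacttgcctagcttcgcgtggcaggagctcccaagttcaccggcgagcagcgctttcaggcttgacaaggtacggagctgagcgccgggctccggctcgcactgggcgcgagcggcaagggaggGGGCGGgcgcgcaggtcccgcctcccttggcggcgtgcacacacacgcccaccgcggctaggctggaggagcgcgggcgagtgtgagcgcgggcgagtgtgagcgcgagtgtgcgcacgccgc
Gabrg1: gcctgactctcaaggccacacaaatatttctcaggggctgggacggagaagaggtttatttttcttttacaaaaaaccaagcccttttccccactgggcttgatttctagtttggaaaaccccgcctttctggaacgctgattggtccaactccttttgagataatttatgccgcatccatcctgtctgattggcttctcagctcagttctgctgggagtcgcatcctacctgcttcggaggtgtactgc

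The GC box, a motif often found in promoters without a TATA box but not only there, was the most frequent of 6 motifs searched on both strands. It occurred in 20 of the 35 receptor gene promoters, and in 32.4% of 27457 rat promoters. It was found in 14 of 19 promoters of genes that fell and in 1 of 2 of genes that rose, and a link with direction was not tested. Chrnb4, which rose, and Chrna3, which fell, both held it, while Gabrb1, which fell, and Gabrg1, which rose, both lacked it. The bases before Chrna5 and Gabra4 were 70.4% and 71.6% G or C, and those before Gabrb1 and Gabrg1 49.2% and 48.4%. The CRE letters TGACGTCA and the AP-1 letters TGANTCA occurred in 0 of the 35, against 1.7% and 6.36% of all promoters. The E-box letters CAGCTG were found in 6 (11.9% of all), the TATA box letters TATAAA in 4 (13.1%), and the STAT letters TTCNNNGAA in 2 (7.52%). No 2 of these motifs shared bases in the sequences shown, where the GC box alone was found. Such matches describe letters and not bound sites.

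Most genes that make, release or remove GABA and glycine fell. Of 11 tested genes of GABA and glycine synthesis, release and uptake, 9 fell and 1 rose (median -0.35). Gad2, a GABA-producing decarboxylase gene, had a log2 fold change of -0.53, Slc6a11, a GABA uptake transporter gene, -0.50, and Glul, the glutamine synthetase gene of Müller glia, -1.05. For acetylcholine, 3 of 6 tested genes fell (median -0.30). Chat, the synthesising enzyme gene, which the table lists as a pseudogene, had -1.18, Slc5a7, the choline uptake gene of the same neurons, -1.25, and Prima1, an anchor of acetylcholinesterase, -0.55. Ache, the esterase itself, did not pass (0.01, edgeR adjusted p = 0.956). Of 6 tested starburst cell markers 3 fell, Chat and Slc5a7 among them, and 2 rose.

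Among genes that assemble, anchor or carry the signal of the receptors, more fell than rose in each list. The background for these lists was 17.5% of all tested genes lower and 20.4% higher. Of 19 tested clustering and assembly genes of GABA-A and glycine receptors, 8 fell and 2 rose (median -0.14). Iqsec3, an inhibitory synapse scaffold gene, had a log2 fold change of -0.56, Gabarapl1, of a trafficking protein, -0.55, and Nsf, of a membrane fusion ATPase, -0.32. Of 10 GABA-B auxiliary and effector genes 7 fell and 2 rose. Kctd16 and Kctd12 encode auxiliary subunits that stay bound to the receptor, and the former fell (-0.93) while the latter rose (0.62). Kcnj6 and Kcnj9, potassium channels opened by GABA-B receptors, were at -0.56 and -0.58.

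For nicotinic receptors, 6 of 12 assembly and modulator genes fell and 3 rose (median -0.31). Lynx1 and Ly6h, which encode membrane proteins that dampen the receptors, had log2 fold changes of -0.95 and -0.82. Vsnl1, a calcium sensor gene, was at -1.11 and Tmem35a, the gene of the assembly factor NACHO, at -0.38. Of 8 tested muscarinic effector genes 5 fell and none rose. Kcnq3, of the potassium channel that muscarinic receptors close, was at -0.90, Plcb1, of a phospholipase C, at -0.69, Rgs4, of a G protein regulator, at -0.59 and Gnao1, of a G protein, at -0.34. The chloride gradient, which sets the direction of GABA and glycine currents, had 3 of 9 genes lower and 1 higher. Slc12a5, the chloride exporter KCC2, was at -0.33 and Slc12a2, the importer NKCC1, did not pass (0.14, edgeR adjusted p = 0.133). Wnk3 and Stk39, kinase genes that regulate these transporters, were at -0.49 and -0.20.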

How the data were processed

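Retinal RNA of 12 rats was compared, 6 injected with PBS and 6 with NMDA. Whole counts per gene and FPKM values were deposited by the authors side by side, per the file headers. Per the submitters' processing notes, Bowtie2, RSEM 1.3.1 and DESeq2 1.4.5 were used, in roles the notes leave unsaid. How multi-mapping reads were treated, the strand setting and the genome build are not given in the sources used here. Counts of overlapping genes are therefore uncertain (9 of the 45 receptor genes overlap another gene's span). For Gabra3, Gabrr1, Chrm2 and Chrne, the overlapping gene itself held at most 0, 2, 2 and 7 counts in a library. Counts were filtered with filterByExpr (count minimum 10, total minimum 15), scaled by TMM and tested with edgeR 4.0.16 in R 4.3.3 (robust quasi-likelihood fit, group as the only term), a procedure tested on simulated data. The SE is the size of the log2 fold change over the square root of F. limma 3.58.1 and DESeq2 1.42.0 served as alternatives. The former was used on log2(FPKM + 1), on log2(FPKM + 0.1) and, as voom with quality weights for the libraries, on the counts.

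The receptor genes and lists were chosen with earlier results of these data known, and p-values were adjusted over all tested genes. Each receptor gene past the threshold and the highest of each class were described in full, with up to 4 genes of each companion list by smallest adjusted p. Ache, Slc12a2, Mdk, Zbtb4, Rbpms, Pmel and Tyr were named after their values were seen. Some genes that the rule would name are not reported here; counts over classes and lists include them. Gphn stood on 2 rows and was left out of its list. Slc18a3 was not analysed here. Protein sequences were not used here. Same-group libraries differed by more than sampling noise (chi-square per degree of freedom at least 12.2). Labels do not say that libraries came from separate litters or days, so p-values measure the spread between these retinas.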

Additional observations from a re-analysis of the deposited data

Results flagged for a closer look

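In 6 of the 70 groups of 6 libraries tested (35 receptor genes in each treatment), 1 library stood so far from the others that the gap to its nearest neighbour, as a share of the group's range, exceeded Dixon's 95% critical value. Chance gives about 1 in 20 such groups. NMDA 3 was the high one in 3 of them. It held 12 CPM of Chrm4 (next highest NMDA library 4.23), 12.6 of Chrna3 (next 8.39) and 4.88 of Chrm1 (next 2.87). PBS 5 held 12.4 CPM of Chrm4, with the next PBS library at 5.68. NMDA 3 and PBS 5 also held the highest summed level of 7 pigment epithelium markers in their groups, 261 CPM against at most 46.8 and 200.1 against at most 107. The melanosome gene Pmel was the largest part of both sums. Chrna3 in PBS 5 was the lowest of the PBS libraries, at 10.4 CPM. Chrm1 in PBS 5 was 3.29 CPM, where PBS ran from 2.9 to 4.72. NMDA 3 also held the highest NMDA sum of 12 ganglion cell markers, 589.8 CPM. The part of pigmented or ganglion cells in these values was not tested. PBS 4 held 1.02 CPM of Gabrq (next 0.628). PBS 3 was low for Chrnb3, at 47.7 CPM, with the next lowest PBS library at 54.8.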

How the results depend on the processing

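Over 25 alternatives no receptor gene that passed changed direction, and 22 of the 28 passed wherever they were tested. The exceptions included Chrna3, Chrna5, Chrnb4, Gabrb2 and Glra3. The filter of 10 CPM in 6 libraries left 23 receptor genes to test. Receptor genes lower with NMDA numbered 18 to 26 over the alternatives and 22 to 26 when 1 library was left out, and those higher numbered 1 to 4 when 1 library was left out, with 1 without PBS 2 or NMDA 6. With 1 library left out, 2832 to 3397 genes of the whole table were higher and 2415 to 3232 lower. The fits without 2 libraries each were chosen after seeing the data.

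With the replicate number as a block, 23 receptor genes were lower and 3 higher, with Gabrb2 and Glra3 lost, and 2948 genes of the table were higher and 2645 lower. Same-numbered libraries did not deviate together (correlations from -0.19 to 0.15, 1 of 6 PBS libraries closest to its own number), so the numbers were not treated as pairs. Signs changed only for genes that did not pass: Gabra5 (log2 fold change 0.028 on log2(FPKM + 0.1), 0.18 without PBS 5 and NMDA 3, and -0.32 to 0.12 with 1 library left out), Gabrr2 (-0.00595 without PBS 2 and PBS 3, and -0.024 to 0.074 with 1 left out), Gabrq (-0.23 to 0.045 with 1 left out) and Chrm4 (-0.51 to 0.31 with 1 left out). The cause was not tested. A pseudocount of 1 on FPKM reduced the fold changes of genes near or below 1 FPKM, by construction (Chrne -0.30 in place of -0.81).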
